A study of Rattus norvegicus with 4 samples.

Results

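The 10 cyclic nucleotide phosphodiesterase genes described here are Pde1a, Pde2a, Pde3b, Pde4a, Pde4b, Pde4d, Pde7a, Pde7b, Pde8a and Pde10a. Their members were found by symbol alone: every probe set whose single gene symbol in the platform annotation was one of these names was taken. That gave 15 of the 31099 probe sets on the array. The samples were Sertoli cells of 20-day-old male Sprague-Dawley rats, kept for 72 h in serum-free medium. One group of 2 arrays came from cells cultured with cAMP and the other group of 2 arrays from untreated control cells. Neither the chemical form of the cAMP nor its concentration could be taken from the labels. The labels call the arrays of a group biological replicates without saying whether separate cell preparations were used. The p-values therefore rest on the spread between arrays alone, part of which may be technical.

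Cyclic nucleotide phosphodiesterases cleave cAMP, cGMP or both to the inactive 5′ monophosphates, and so set how high and how long a cyclic nucleotide signal stays. The PDE4, PDE7 and PDE8 families act on cAMP. The PDE1, PDE2, PDE3 and PDE10 families accept both nucleotides, with calcium and calmodulin activating PDE1, and with cGMP stimulating PDE2 and competing with cAMP in PDE3. In Sertoli cells, the somatic nurse cells of the seminiferous tubule, follicle-stimulating hormone acts through cAMP, and PDE4 enzymes are known, in the rat, to be induced by that hormone.

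The promoter windows of the members that hold a cAMP response half-site are shown first, because this is the element bound by the cAMP-activated factor CREB. The sequences come from RefSeq on the rat build GRCr8. Each window runs from 250 bases before to 50 bases after an annotated start and is printed 5′ to 3′ on the gene's strand. Capitals mark TGACG or, for a site on the other strand, CGTCA. Both lie within the full palindrome TGACGTCA, where they overlap, and no 2 matches marked here overlap. The Pde10a window lies at chr1:54765619-54765918 on the minus strand, and its matches begin 179 and 104 bases upstream of the start. The other 5 lie on plus strands. The 2 Pde4d windows lie at chr2:42592499-42592798, with matches that begin 231 and 194 bases upstream, and at chr2:42767367-42767666, with 1 match 19 bases upstream. The Pde8a window lies at chr1:144575219-144575518, with its match 86 bases upstream. The Pde4a windows lie at chr8:27966737-27967036 and chr8:27999163-27999462, with matches 11 and 18 bases upstream.
Pde10a: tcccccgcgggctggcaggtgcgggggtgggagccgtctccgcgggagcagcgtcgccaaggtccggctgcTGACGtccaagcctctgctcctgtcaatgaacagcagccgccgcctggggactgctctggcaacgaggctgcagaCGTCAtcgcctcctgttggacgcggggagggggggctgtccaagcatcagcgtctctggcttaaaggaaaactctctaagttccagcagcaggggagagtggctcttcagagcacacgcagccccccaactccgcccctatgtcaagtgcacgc
Pde4d, upstream of these 2: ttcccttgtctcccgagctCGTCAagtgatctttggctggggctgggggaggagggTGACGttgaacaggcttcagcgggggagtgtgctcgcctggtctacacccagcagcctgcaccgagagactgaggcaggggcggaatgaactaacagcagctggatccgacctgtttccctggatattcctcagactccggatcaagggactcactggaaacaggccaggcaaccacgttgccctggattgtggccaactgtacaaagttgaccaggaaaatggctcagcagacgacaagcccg
Pde4d, downstream of these 2: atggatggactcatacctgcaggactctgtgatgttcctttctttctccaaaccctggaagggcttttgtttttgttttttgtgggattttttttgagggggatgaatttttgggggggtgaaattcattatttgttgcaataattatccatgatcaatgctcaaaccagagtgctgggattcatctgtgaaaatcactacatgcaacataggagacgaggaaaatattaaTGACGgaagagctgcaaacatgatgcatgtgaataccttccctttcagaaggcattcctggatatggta
Pde8a: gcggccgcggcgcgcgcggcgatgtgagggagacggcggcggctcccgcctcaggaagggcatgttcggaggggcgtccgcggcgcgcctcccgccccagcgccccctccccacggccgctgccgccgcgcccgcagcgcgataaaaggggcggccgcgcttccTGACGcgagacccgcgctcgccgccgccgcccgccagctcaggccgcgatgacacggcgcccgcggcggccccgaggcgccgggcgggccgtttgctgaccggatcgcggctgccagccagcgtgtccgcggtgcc
Pde4a, upstream of these 2: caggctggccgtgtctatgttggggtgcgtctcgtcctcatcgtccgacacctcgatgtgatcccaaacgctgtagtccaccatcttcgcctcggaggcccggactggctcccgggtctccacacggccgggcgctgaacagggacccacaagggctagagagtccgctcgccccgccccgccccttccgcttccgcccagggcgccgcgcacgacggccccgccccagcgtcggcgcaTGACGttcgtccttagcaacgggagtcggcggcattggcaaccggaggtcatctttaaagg
Pde4a, downstream of these 2: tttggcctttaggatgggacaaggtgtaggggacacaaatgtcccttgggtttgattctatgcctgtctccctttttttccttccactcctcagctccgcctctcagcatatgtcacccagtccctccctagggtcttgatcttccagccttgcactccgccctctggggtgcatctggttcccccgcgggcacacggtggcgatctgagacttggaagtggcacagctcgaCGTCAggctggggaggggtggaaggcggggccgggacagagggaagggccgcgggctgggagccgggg

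The table of promoters held 17 windows for 7 of the 10 genes; Pde3b, Pde7a and Pde7b had none. Pde4d had 5 windows, Pde4a 4, Pde2a, Pde4b and Pde10a 2 each, and Pde1a and Pde8a 1 each. The half-site stood in 6 of the 17. The genes whose signal rose with cAMP (Pde4b, Pde4d, Pde8a and Pde10a) had it in 4 of 10 windows, and the other genes with a window had it in 2 of 7, both of them Pde4a windows. Neither Pde4b window held it. Of all 33469 windows, 21.2% held the half-site and 1.83% held TGACGTCA, which stood in 0 of the 17. A match of these letters is a description of the window and does not show binding.

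Values below are MAS5 signals, intensities on a linear scale that the authors had scaled to a common trimmed mean. A log2 difference is cAMP minus control on the log2(signal + 16) scale, ± its standard error, from limma with n = 2 arrays per group, and it understates the change of dim probe sets. A probe set is said to have risen or fallen at an adjusted p of 0.05 or less, with Benjamini-Hochberg adjustment over all 18625 tested probe sets. Background is 14.2, the brightest of the 27 Bacillus control probe sets on any array. Folds are ratios of geometric means, with each signal below background first raised to it.

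The median signal lay between 31.3 and 33.7 on the 4 arrays. Log2 signals correlated with r = 0.984 between the cAMP arrays, 0.967 between the control arrays and 0.895 to 0.925 for a cAMP array with a control array (0.895 and 0.900 for control replicate 2, 0.924 and 0.925 for control replicate 1), which is across genes and not across independent replicates. Actin signal at the 3′ end over that at the 5′ end, which reflects RNA quality, was 1.86 and 1.64 on the cAMP arrays, against 1.80 and 2.25 on the control arrays, with control replicate 2 highest; its part in the results was not tested. Sertoli markers summed to 25236 and 25409 on the cAMP arrays, against 23289 and 24845 on the control arrays. Their near-equal sums held changes in both directions, with 3 of 9 tested higher (Inha 2.04 ± 0.15, Dhh 0.74 ± 0.14 and Shbg 0.69 ± 0.18, log2) and 2 lower (Gata4 -0.94 ± 0.12 and Aard -0.51 ± 0.13). Rhox5 was near or under background, at 21.0 and 14.0 on the cAMP arrays, against 5.7 and 16.7 on the control arrays. Of 8 germ cell markers 3 had a probe set, and of these Sycp3 and Tex101 were present on every array, with Kit near or under background. These germ cell markers summed to 2957 and 2215 on the cAMP arrays, against 3051 and 2913 on the control arrays, mostly from Sycp3. Peritubular myoid markers summed to 171.8 and 226.9 on the cAMP arrays, against 614.5 and 451.7 on the control arrays, with 1 of 7 at background on every array. Tagln alone had 1.3 and 7.4 on the cAMP arrays, against 344.5 and 264.3 on the control arrays, and without it the sums overlapped, at 170.5 and 219.5 on the cAMP arrays, against 270.0 and 187.4 on the control arrays. Tagln (-3.98 ± 0.24) and Synpo2 (-1.14 ± 0.29) fell, whereas Des rose (1.15 ± 0.20). Endothelial markers summed to 91.2 and 88.3 on the cAMP arrays, against 229.5 and 155.6 on the control arrays. Kdr was lower (-1.23 ± 0.21), the other tested marker, Tek, was at -0.001 ± 0.23, and Pecam1 and Vwf were at background. Of these marker calls, those of Inha and Tagln held with any 1 array left out, and the other 7 were lost whichever cAMP array was left out. Macrophage markers summed to 59.1 and 79.9 on the cAMP arrays, against 29.7 and 26.7 on the control arrays, with 4 of 6 at background throughout and 0 tested. Most of that gap came from Cd68, with 28.1 and 45.2 on the cAMP arrays, against 4.1 and 6.2 on the control arrays. Leydig markers summed to 90.1 and 73.5, against 95 and 90.1, with 3 of 6 at background. The part of these other cell types in the phosphodiesterase changes was not tested, and in RNA from whole cultures fewer cells of a type and less RNA per cell cannot be told apart.

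Of the 15 member probe sets, 12 passed the filter on dim signals and were tested, 8 rose, none fell by limma (0 lower, also 0 lower at an unadjusted p of 0.05 or less), and 4 did not pass the threshold. Among all tested probe sets 7.29% rose and 6.39% fell. The 8 belonged to 4 genes: Pde10a, Pde4d, Pde4b and Pde8a. Read by each gene's probe set with the highest mean, 4 of the 7 tested genes rose, against 8.27% of all 10035 named genes tested. The median log2 difference of the 7 was 1.52, and that of all named genes was -0.03. Of the 8 probe sets that rose, 3 had control means under the filter and were tested only because of their cAMP signals, so these counts are a description and support nothing further. The cAMP arrays both lay above the control arrays in 10 of the 15 probe sets, the untested Pde7b among them, against 27.1% of all tested probe sets. They both lay below in 1, Pde1a, whose 4 signals were under background, against 31.1% of all tested. The groups overlapped in the other 4, Pde2a, Pde3b, Pde4a and Pde7a, while 58.2% of all tested probe sets did not overlap in one direction or the other.

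**Figure D1:**
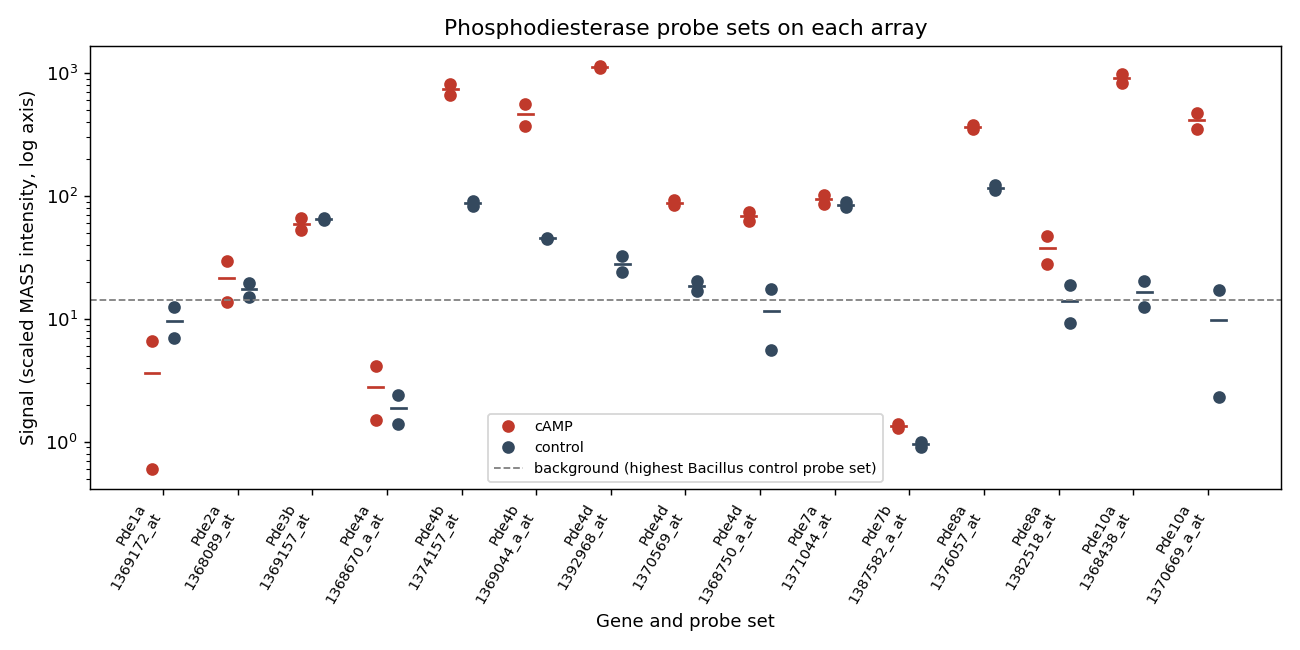
Signal of each of the 15 phosphodiesterase probe sets (log axis, scaled MAS5 intensity) on the 2 cAMP arrays and the 2 control arrays; points are arrays, short bars are group means, and the dashed line is the background of 14.2. The cAMP arrays lie far above the control arrays for Pde10a, Pde4d 1392968_at and Pde4b, while Pde1a, Pde4a and Pde7b lie under the line on every array.

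Of the 3 members from the cAMP-specific PDE4 family, Pde4d and Pde4b rose and Pde4a lay under background on every array. Pde4d, whose many promoters give long and short enzyme forms, was read by 3 probe sets. Probe set 1392968_at had signals of 1106 and 1142 on the cAMP arrays, against 24.0 and 32.3 on the control arrays. Both cAMP signals were far above both control signals, and all 4 were above background. The log2 difference was 4.70 ± 0.17 (adjusted p by limma = 2.48e-05), a fold of 40.4, and ranked 11 among the 18625 tested probe sets.

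The signals of the other Pde4d probe sets rose much less. Probe set 1370569_at had 84.7 and 92.4 on the cAMP arrays, against 16.9 and 20.4 on the control arrays (1.59 ± 0.20, adjusted p by limma = 0.00247), a fold of 4.76. Probe set 1368750_a_at had 63.1 and 74.1 on the cAMP arrays, against 5.6 and 17.6 on the control arrays (1.65 ± 0.26, adjusted p by limma = 0.00716), a fold of at least 4.33 since 1 control signal was raised to background. Groups did not overlap for either, but the lower control signal of 1368750_a_at was under background. Both control signals of 1370569_at were just above background, so the size of both changes is uncertain. The control mean of 1368750_a_at was below the filter, so it was tested only because of its cAMP signals. Its call was lost without cAMP replicate 1 (adjusted p by limma = 0.0501) and without cAMP replicate 2 (adjusted p = 0.0684). With pseudocounts of 64 and 1 in place of 16, the log2 difference of 1370569_at was 0.88 and 2.19, and that of 1368750_a_at was 0.81 and 2.65.

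The difference in response between Pde4d probe sets was itself tested. For every gene with several tested probe sets, the log2 ratio of each further probe set to the gene's brightest was taken within each array, and cAMP was compared with control by limma over all 3758 such pairs. Of those pairs 1.01% passed. The brightest was chosen by the mean over all 4 arrays, cAMP included, and this choice favours a smaller response of the further probe set. The response of 1370569_at was smaller than that of 1392968_at by a log2 difference of -3.10 ± 0.22 (adjusted p by limma = 0.00095), and that of 1368750_a_at by -3.05 ± 0.25 (adjusted p = 0.00146). The pair with 1368750_a_at was tested only because of that probe set's cAMP signals, so its value is a description. With any 1 array left out, the first difference lay between -3.17 and -3.04 and the second between -3.23 and -2.87. Each such fit leaves 1 array in 1 group, so these ranges are a description. With a pseudocount of 1 the first pair still passed at -3.09 (adjusted p by limma = 0.0454), while the second did not, at -2.64 (adjusted p = 0.167). With the filter set at the 60th percentile neither of the dimmer Pde4d probe sets was tested. Which Pde4d transcripts each probe set reads was not determined here.

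Pde4b, the PDE4 gene with a strong link to inflammatory signalling, was read by 2 probe sets that both rose. Probe set 1374157_at had 670.1 and 815.5 on the cAMP arrays, against 91.3 and 82.7 on the control arrays, a fold of 8.51 (2.88 ± 0.17, adjusted p by limma = 0.000118). Probe set 1369044_a_at had 372.4 and 560.0 on the cAMP arrays, against 44.4 and 45.9 on the control arrays, a fold of 10.1 (2.95 ± 0.22, adjusted p by limma = 0.0003). Every cAMP signal lay above every control signal in both, and the spread within the cAMP pair was wider than within the control pair. The difference in response between the 2 Pde4b probe sets was 0.08 ± 0.20 (95% interval -0.38 to 0.54, adjusted p by limma = 0.898).

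Pde4a, the remaining PDE4 member, was not seen above background. Its single probe set 1368670_a_at had 4.1 and 1.5 on the cAMP arrays, against 2.4 and 1.4 on the control arrays. It lay below the filter and was not tested. The 95% intervals of the log2 difference were 4.30 to 5.09 for Pde4d 1392968_at and 2.49 to 3.26 for Pde4b 1374157_at, and they did not overlap. A direct test of one gene's response against the other's was not made.

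**Figure D2:**
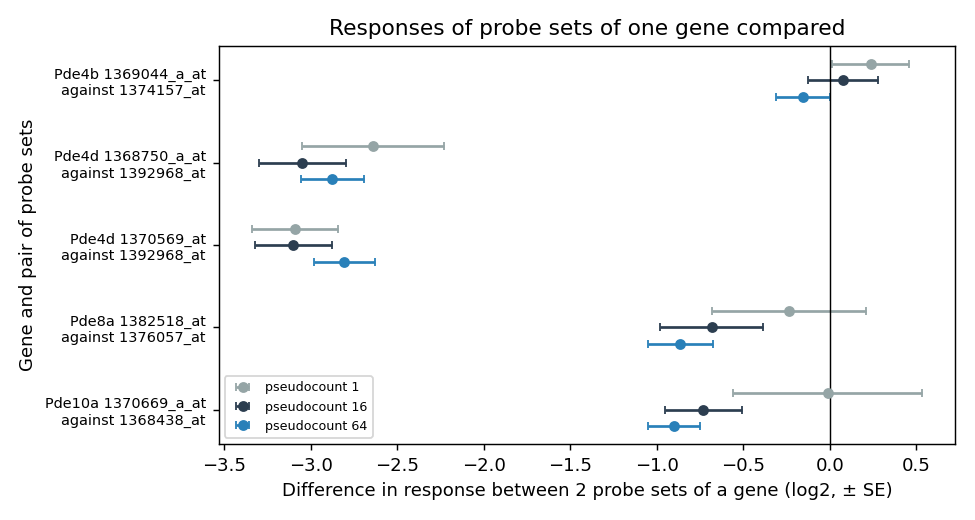
Difference in the cAMP response between 2 probe sets of the same gene, as log2 with bars of ± SE, for the 5 member pairs at pseudocounts of 1, 16 and 64; values below 0 mean a smaller rise than the gene's brightest probe set. Both Pde4d pairs lie at or below -2.64 at every pseudocount, the Pde4b pair lies near 0, and the Pde8a and Pde10a pairs move toward 0 at a pseudocount of 1.

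Pde8a encodes a cAMP-specific enzyme with a very high affinity for its substrate, known in the testis for limiting steroid output of Leydig cells in the mouse. Its brighter probe set, 1376057_at, had 377.8 and 350.4 on the cAMP arrays, against 122.0 and 111.7 on the control arrays. The groups were well apart and each pair was tight, with a log2 difference of 1.52 ± 0.16 (adjusted p by limma = 0.00113) and a fold of 3.12. The dimmer Pde8a probe set, 1382518_at, had 27.8 and 47.5 on the cAMP arrays, against 18.8 and 9.2 on the control arrays, the last of them under background. Its control mean was below the filter, so it was tested only because of its cAMP signals. It did not pass (0.83 ± 0.27, adjusted p by limma = 0.0946), although both cAMP signals were above both control signals. The value was 0.38 with a pseudocount of 64 and 1.39 with a pseudocount of 1. Without control replicate 1 it was 1.07, and without control replicate 2 it was 0.60. The difference in response between the 2 Pde8a probe sets, -0.68 ± 0.30 (95% interval -1.35 to -0.01), did not pass (adjusted p by limma = 0.353), but passed at a pseudocount of 64 (-0.87, adjusted p = 0.0107). It was smaller at a pseudocount of 1 (-0.24, adjusted p by limma = 0.874) and without cAMP replicate 1 (-0.36, adjusted p = 0.97).

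Pde7a and Pde7b encode cAMP-specific enzymes that the PDE4 inhibitor rolipram does not block. Pde7a 1371044_at had 86.7 and 102.3 on the cAMP arrays, against 88.9 and 81.1 on the control arrays. The groups overlapped, and the log2 difference was 0.13 ± 0.18 (95% interval -0.31 to 0.56, adjusted p by limma = 0.702). Pde7b 1387582_a_at had 1.4 and 1.3 on the cAMP arrays, against 1.0 and 0.9 on the control arrays, all far under background, and was not tested.

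Among the members that accept both nucleotides, Pde10a rose on both of its probe sets. The gene is best known from the medium spiny neurons of the striatum. Probe set 1368438_at had 834.0 and 989.2 on the cAMP arrays, against 20.5 and 12.4 on the control arrays. Probe set 1370669_a_at had 353.6 and 476.0 on the cAMP arrays, against 17.2 and 2.3 on the control arrays. In both, the signal of control replicate 2 was under background and that of control replicate 1 just above it, so the size of the change is uncertain and both probe sets passed the filter only through their cAMP signals. The log2 differences were 4.84 ± 0.20 (adjusted p by limma = 2.90e-05) and 4.11 ± 0.31 (adjusted p by limma = 0.000302), and both depend on the pseudocount. With pseudocounts of 64 and 1 that of 1368438_at was 3.60 and 5.74, and that of 1370669_a_at was 2.69 and 5.73. With control replicate 2 raised to background, the signals were at least 53.2-fold and at least 26.3-fold higher with cAMP.

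The difference in response between the 2 Pde10a probe sets was -0.73 ± 0.22 and did not pass (adjusted p by limma = 0.214). It passed with a pseudocount of 64 (-0.90, adjusted p by limma = 0.00094), and was -0.01 with a pseudocount of 1. Without control replicate 2 it was -0.98, and without control replicate 1 it was -0.48.

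The other members with dual substrates showed no change past the threshold. Pde3b, an enzyme that insulin activates in fat cells, was read by 1369157_at with 66.7 and 52.6 on the cAMP arrays, against 66.2 and 63.6 on the control arrays. The groups overlapped (-0.10 ± 0.20, 95% interval -0.57 to 0.36, adjusted p by limma = 0.779). Pde2a 1368089_at had 29.4 and 13.7 on the cAMP arrays, against 19.5 and 15.2 on the control arrays, with 1 cAMP signal under background (0.14 ± 0.27, 95% interval -0.48 to 0.76, adjusted p by limma = 0.773). The control mean of Pde2a was below the filter, so it was tested only because of its cAMP signals. Pde1a 1369172_at had 6.6 and 0.6 on the cAMP arrays, against 7.0 and 12.4 on the control arrays, none above background, and was not tested. These intervals leave room for changes of the Pde2a and Pde3b signals in either direction.

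**Figure D3:**
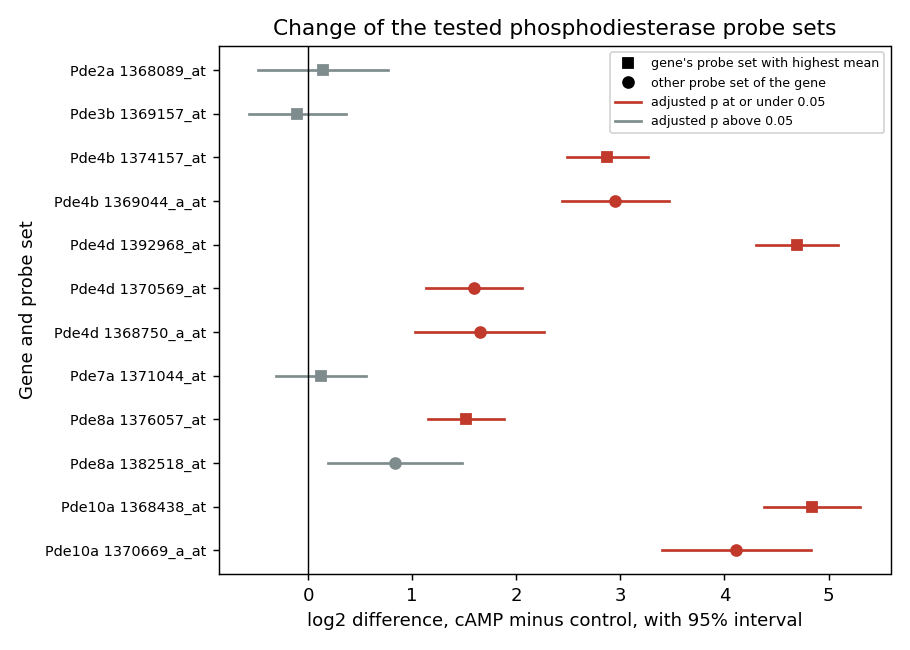
The log2 difference (cAMP minus control, on the log2(signal + 16) scale) of the 12 tested phosphodiesterase probe sets with its 95% interval; squares are the probe set with the highest mean of each gene, circles the others, and red marks an adjusted p of 0.05 or less. The 3 Pde4d probe sets spread between 1.59 and 4.70, whereas the 2 of Pde4b sit at 2.88 and 2.95.

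The nearest expression patterns were looked for among 10028 named genes tested, by Euclidean distance between the 4 log2 signals after centring each gene on its own mean. With only 4 arrays this is a description of likeness in the size of the difference between groups. The order of the 2 arrays within a group could differ. Nearest to Pde4d was Nefh, the neurofilament heavy chain gene, at a distance of 0.12 log2 units, with 905.1 and 983.8 on the cAMP arrays, against 20.2 and 27.9 on the control arrays. Scarb1, the receptor for high-density lipoprotein, followed at 0.52 and Wfdc1 at 0.66. Both were lower in replicate 2 than in replicate 1 of each group, the reverse of Pde4d. Nearest to Pde10a were Scarb1 at 0.39, Nefh at 0.53 and Star, the mitochondrial cholesterol carrier, at 0.59. Pde4b lay closest to the chemokine receptor gene Cxcr4 at 0.15, with 588.7 and 630.5 on the cAMP arrays, against 73.7 and 61.6 on the control arrays. Bcl2a1, of the BCL2 family, lay at 0.18 from Pde4b and the opioid precursor gene Pdyn at 0.23.

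Other genes that make, sense or remove cyclic nucleotides were read by each gene's brightest probe set, against the 8.27% of named genes that rose and the 7.14% that fell. Of 14 further phosphodiesterase genes 12 had a probe set and 2 were tested. Both missed the threshold: Pde6d, which chaperones prenylated proteins, had a log2 difference of 0.17 ± 0.18, and Pde8b one of -0.45 ± 0.32, which lay between -0.81 and -0.086 with 1 array left out. The fourth PDE4 gene, Pde4c, was below the filter, with 13.8 and 13.9 on the cAMP arrays, against 32.1 and 14.2 on the control arrays. The cone photoreceptor subunit gene Pde6h had 15.0 and 15.4 on the cAMP arrays, just above background, against 3.4 and 2.9 on the control arrays, and was below the filter.

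Genes of cAMP synthesis did not pass the threshold. Of 16 adenylyl cyclase and G protein genes, 13 had a probe set, 7 were tested and none passed by limma (0 higher, 0 lower), including the stimulatory subunit gene Gnas at -0.06 ± 0.11 and the cyclase gene Adcy6 at 0.25 ± 0.17. None of the 7 had an unadjusted p under 0.05. Adcy9 (-0.83 ± 0.40) was at -1.47 without control replicate 1 and at -0.19 without control replicate 2. Its control signals, 42.1 and 125.3, lay far apart. Of 12 receptors that couple to the stimulatory G protein, 10 had a probe set, and Fshr, the receptor gene for follicle-stimulating hormone, had none. Of these, 2 were tested and neither passed: Adrb1 had 0.69 ± 0.36 and Adora2b 0.46 ± 0.25. Adrb1 had 21.4 and 66.0 on the cAMP arrays, against 19.2 and 17.6 on the control arrays, and its log2 difference was 1.25 without cAMP replicate 1 and 0.12 without cAMP replicate 2. That of Adora2b lay between 0.26 and 0.67 with 1 array left out.

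Of 15 cAMP effectors 14 had a probe set, 9 were tested, 1 rose and none fell (0 lower by limma, with 4 in all at an unadjusted p under 0.05). Prkar2b, a regulatory subunit of protein kinase A, had 259.0 and 150.2 on the cAMP arrays, against 84.0 and 90.9 on the control arrays (1.05 ± 0.25, adjusted p by limma = 0.0348), and was lost without cAMP replicate 1 (0.68, adjusted p = 0.289). Rapgef3, the cAMP-gated exchange factor EPAC1, had -0.78 ± 0.23 and did not pass (adjusted p by limma = 0.0648). Popdc2, a cAMP-binding membrane protein of muscle, had -0.63 and did not pass either. Prkar1a (0.34 ± 0.12) did not pass, and lay between 0.28 and 0.40 with 1 array left out.

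On the cGMP side, 1 of 5 tested genes rose. Gucy1b1, the beta subunit of the nitric oxide-sensing guanylyl cyclase, had 1091 and 879.4 on the cAMP arrays, against 51.6 and 51.7 on the control arrays (3.88 ± 0.17, adjusted p by limma = 4.46e-05). The gap between groups was many times the spread within either. Its partner Gucy1a1, the alpha subunit, had 115.8 and 112.3 on the cAMP arrays, against 43.2 and 71.1 on the control arrays, and just missed the threshold (0.86 ± 0.23, adjusted p by limma = 0.0502). Gucy1a1 was at 1.14 without control replicate 2 and at 0.58 without control replicate 1. The natriuretic peptide receptor genes Npr1 (0.58 ± 0.24) and Npr2 (-0.73 ± 0.20) did not pass by limma. Npr1 was at 0.89 without control replicate 1 and at 0.27 without control replicate 2.

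Of 17 anchors and partners of phosphodiesterases and protein kinase A, 13 were tested and 2 fell. The anchor gene Akap12 had 310.4 and 313.6 on the cAMP arrays, against 985.3 and 1157 on the control arrays (-1.72 ± 0.14, adjusted p by limma = 0.000427). Akap1, whose product sits on mitochondria, fell by 0.77 on the log2 scale (± 0.18, adjusted p by limma = 0.0296), and was lost without cAMP replicate 1 (adjusted p = 0.215) and without cAMP replicate 2 (adjusted p = 0.244). Akap6, which binds PDE4D3 in heart cells of the rat, had -0.82 ± 0.23 and Akap9, which binds PDE4D3 at the centrosome and Golgi, -0.54 ± 0.19, and neither passed. With 1 array left out, Akap6 lay between -0.98 and -0.65 and Akap9 between -0.71 and -0.38. Pde4dip, the PDE4D-binding scaffold myomegalin, had -0.02 ± 0.28, and lay between -0.37 and 0.32 with 1 array left out.

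Of the 3 genes of cyclic nucleotide export and breakdown outside the cell, none passed by limma (0 higher, 0 lower, with 2 at an unadjusted p under 0.05). Abcc4, an exporter of cAMP, had -0.60 ± 0.18 and Nt5e, the ectonucleotidase CD73, 0.42 ± 0.15. With 1 array left out, Abcc4 lay between -0.73 and -0.47. Of 12 genes known to respond to CREB, 10 were tested, 7 rose and none fell, with a median log2 difference of 1.77. Among them Crem, which encodes the repressor ICER, had 656.4 and 601.4 on the cAMP arrays, against 242.1 and 140.3 on the control arrays (1.68 ± 0.24, adjusted p by limma = 0.00429), and the kinase gene Sik1 had 1.96 ± 0.17. The orphan nuclear receptor genes Nr4a3 and Nr4a1 had 3.89 ± 0.19 and 2.80 ± 0.15, and the AP-1 genes Junb and Fos 2.49 ± 0.21 and 1.86 ± 0.16. Crem was lost without cAMP replicate 1 (adjusted p by limma = 0.0502), and Nr4a2 (0.98 ± 0.23) whichever cAMP array was left out. Atf3 (0.95 ± 0.34), Per1 (0.31 ± 0.19) and Dusp1 (0.21 ± 0.18) did not pass. Atf3 was at 1.52 without control replicate 1 and at 0.38 without control replicate 2.

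**Figure D4:**
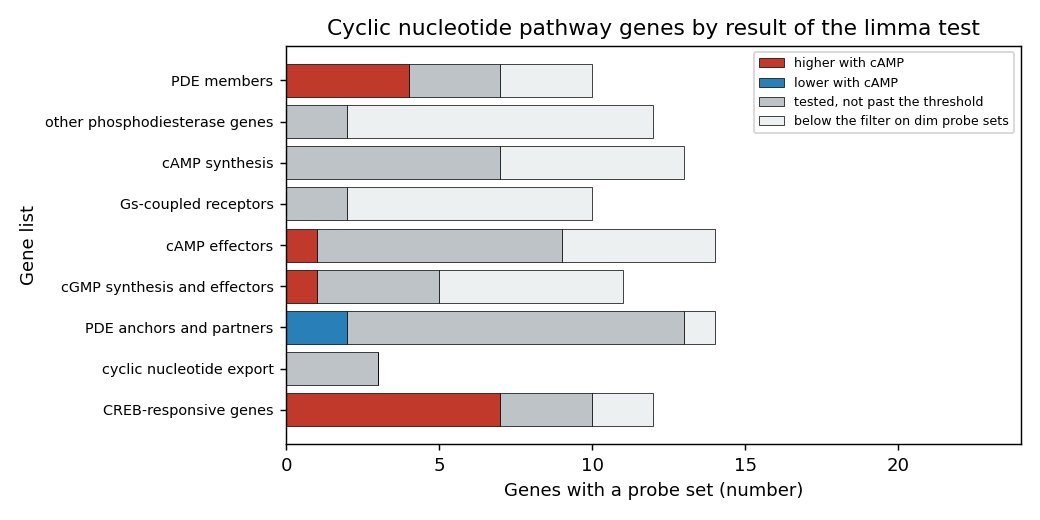
Number of genes with a probe set in each list, split by the result of the limma test into higher with cAMP, lower with cAMP, tested but not past the threshold, and below the filter on dim probe sets. The 10 phosphodiesterase members hold 4 higher genes and the 12 CREB-responsive genes 7, while the lists of cAMP synthesis and cAMP effectors hold 0 and 1.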

How the data were processed

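Per the submitters' processing notes, the authors used GCOS and MAS5, and they deposited 1 intensity per probe set and array on a linear scale. The sources used here give no version or setting. A mean trimmed by 2% at either end came to 125.0 on each array. Gene symbols came from the platform annotation: 20832 probe sets had 1 symbol, 436 several and 9831 none, and 20764 were matched to the RefSeq gene table of GRCr8 to bring symbols up to date.

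From the intensities, log2(signal + 16) was computed with no further normalization. Probe sets other than the 57 controls were tested if their mean lay at or above the 40th percentile (log2 of 5.10). The 2 cAMP and 2 control arrays were compared with limma 3.58.1 in R 4.3.3 (lmFit, eBayes with an intensity trend, two-sided, Benjamini-Hochberg adjustment). Precision is limited by the number of arrays. The same model was fitted to log2 ratios between probe sets of one gene. Both fits were also run on simulated data. Changes were placed there only in probe sets well above the filter, so those runs do not cover dim ones.

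The members, gene lists and tests were chosen with earlier results of these data known. Named genes were all members, list genes past the threshold with up to 3 further ones, and the 3 nearest patterns of the 3 members with the smallest adjusted p. Pde4c, Pde6h, Rhox5, Pde4dip, Gnas, Adcy6, Cd68 and Kit were named after their values were seen. Alternatives were the pseudocount, filter, normalization, trend, a replicate block, leaving out each array, and the mean of a gene's probe sets; raising signals to background was added after the data were seen.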

Additional observations from a re-analysis of the deposited data

How the results depend on the processing

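Of 137 alternative values of the tested member probe sets, 133 kept their direction and their side of the threshold. An alternative in which a probe set fell below the filter gave no value and is not among the 137. Of the 4 others, 3 were crossings of the threshold by Pde4d 1368750_a_at and Pde8a 1382518_at with 1 array left out. The last was Pde3b, never past the threshold, which ranged from -0.24 to 0.032 with 1 array left out, above 0 only without cAMP replicate 2. The 4 genes that rose were the same under every alternative, including the mean of a gene's probe sets. The count of member probe sets that rose lay between 7 and 9 with 1 array left out. Over all probe sets 2549 changed, 1598 without the filter on dim probe sets, and 710 to 4848 with 1 array left out (710 without cAMP replicate 1, 765 without cAMP replicate 2 and 4848 without control replicate 1); the cause was not tested. Quantile normalization gave 2557.

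Of the 5 within-gene pairs 2 passed, 1 with a pseudocount of 1, 4 with a pseudocount of 64, and 0 with the filter at the 60th percentile, where only 2 pairs were tested. The Pde4b pair, never past the threshold, turned to -0.16 with a pseudocount of 64, and ranged from -0.070 without cAMP replicate 2 to 0.22 with 1 array left out, with -0.0022 without control replicate 1.

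Same-numbered arrays of the groups deviated together with r = 0.163 over 18625 probe sets, but the labels say nothing of a shared preparation and there are 2 pairs, so they were taken to share only a number. With the replicate number as a block, 3035 probe sets, 8 member probe sets and 4 member genes changed, and 3 within-gene pairs passed, the Pde10a pair being added at -0.73. The standard error of that pair was 0.24 with the block, against 0.22 without, so the added call does not rest on a tighter estimate. Signals at or under background have no reliable order, which limits the fold of Pde10a and of Pde4d 1368750_a_at.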
